A study of Mus musculus with 17 samples.

Results

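The kinesin genes of cultured mouse neural retinal progenitor cells (mNRPCs) were taken as all genes whose symbol is Kif or Kifc followed by a number, which gave 41 of the 18836 genes listed in at least 1 library. Of these, 38 were listed in all 17 libraries, and 31 passed the filter used for tests, a mean FPKM of at least 1 over the 16 cultured libraries (FPKM is the fragment count scaled by transcript length and by library total). They were ordered by textbook role. The mitotic list held 12 measured genes, which all passed. The transport list held 15 genes, of which 11 passed and Kif1a, Kif5a, Kif5c and Kif17 did not. The cilium list held 6 (Kif7 and Kif24 passed; Kif6, Kif9, Kif19a and Kif27 did not), and 6 others were Kif2a, Kif21a, Kif21b and Kif26b, which passed, and Kif12 and Kif26a, which did not. Kifc5b, a near-identical copy of Kifc1 with which it may share reads, and Kif1bp, a protein that binds KIF1 motors and is no motor itself, completed the set. Kif2b and Kif28 were on the lists and in no library.

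Cells came from the neural retina of adult C57BL/6 mice and were propagated before the experiment in basic medium (BM) with bFGF, a growth factor, and CHIR99021, an inhibitor of the kinase GSK3. For RNA-seq they were held in BM alone, in BM with bFGF (B), in BM with CHIR99021 (C) or in BM with both agents (BC), and 1 library of each was made on days 1, 3, 5 and 7 beside 1 day 0 library without treatment by its label. Neither the labels nor the methods give separate mice or cultures for 1 condition, so no value below carries a spread between them. The labels give no batch or date, and a batch that followed day or treatment cannot be told apart from it. Total expected counts ran from 17571973 to 19428744. Among retinal progenitor markers, Pax6, Sox2, Six3, Nes, Hes1 and Sox9 had an FPKM of at least 1 in every library, Rax was under 0.1 in every library, and Lhx2 was below the filter. None of the 8 photoreceptor, 5 retinal pigment epithelium or 5 microglia markers passed the filter.

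Kinesins are motors that use ATP to walk along microtubules or to take their ends apart. A first set is made mainly for cell division. These motors push spindle poles apart, line up chromosomes, and build the midzone and midbody at which daughter cells separate. Their transcripts are made mostly in G2 and M phase, and in many such genes a promoter element with the core TTTGAA (the cell cycle genes homology region, CHR) and CCAAT boxes take part in that timing. A second set carries organelles and vesicles and is used in dividing and resting cells alike. In the retina, transport kinesins are best known from neurons and from photoreceptors, whose outer segment is a modified cilium.

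Promoter windows were searched for those elements, since the mitotic members moved together. The windows ran from 250 bases before to 50 bases after each annotated start (RefSeq, GRCm38.p6) and matched 33 of the 41 members by gene identifier. TTTGAA, on either strand (TTCAAA on the other), stood in 10 of the 11 mitotic kinesins with a window and in 1 of 10 transport kinesins, Kif1a, against 20.2% of the 27025 genes of the table and 14.1% of the tested genes with a window. CCAAT, on either strand (ATTGG on the other), stood in 7 of 11 mitotic and 3 of 10 transport kinesins, against 41.1% and 44.1%. Both stood in 7 of 11 mitotic kinesins (Kif4, Kif11, Kif14, Kif18b, Kif22, Kif23 and Kifc1) and in 0 of 10 transport kinesins, against 8.97% of the table. Both also stood in the copy Kifc5b, in 1 of 5 cilium kinesins, Kif27, and in 1 of 5 other kinesins, Kif26b. Kif26b was lower with bFGF, unlike the mitotic list. The 2 motifs can share at most 1 base, and a match is a stretch of letters, not a shown binding site. Kif18a held neither. The stretches that follow run in the direction of transcription, with matches to either motif in capitals. The first 4 are the 70 bases before the start of 2 mitotic and 2 transport motors, and were chosen because Kif11 and Kif22 hold a CCAAT and a TTTGAA match side by side where Kif3a holds only the former and Kif1c neither.
Kif11 (spindle bipolarity, chr19:37376312-37376381, plus strand): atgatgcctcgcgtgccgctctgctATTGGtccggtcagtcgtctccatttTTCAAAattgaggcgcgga
Kif22 (chromosome arms, chr7:127042421-127042490, minus strand): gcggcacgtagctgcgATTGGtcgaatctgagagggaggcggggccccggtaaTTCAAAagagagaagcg
Kif3a (kinesin-2, chr11:53567299-53567368, plus strand): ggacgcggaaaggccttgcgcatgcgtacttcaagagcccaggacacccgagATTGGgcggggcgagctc
Kif1c (vesicle transport, chr11:70700478-70700547, plus strand): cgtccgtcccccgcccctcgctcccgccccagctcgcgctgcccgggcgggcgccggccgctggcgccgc
The next 7 are 30 bases around the TTTGAA match of other mitotic motors, shown because the core lies close to the start in 6 of them.
Kif15 (chr9:122951050-122951079, plus strand): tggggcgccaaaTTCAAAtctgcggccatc
Kif23 (chr9:61946780-61946809, minus strand): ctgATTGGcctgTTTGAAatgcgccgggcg
Kif18b (chr11:102925104-102925133, minus strand): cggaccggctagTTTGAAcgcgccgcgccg
Kif20b (chr19:34922353-34922382, plus strand): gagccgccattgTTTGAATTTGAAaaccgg
Kifc1 (chr17:33890615-33890644, minus strand): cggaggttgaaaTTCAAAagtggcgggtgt
Kif4 (chrX:100626072-100626101, plus strand): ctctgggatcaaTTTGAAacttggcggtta
Kif2c (chr4:117178858-117178887, minus strand): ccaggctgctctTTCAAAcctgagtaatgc
In Kif2c the match lies farther upstream, in a stretch from position -115 to -86 counted from the start, and in Kif20b 2 matches abut.

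**Figure D1:**
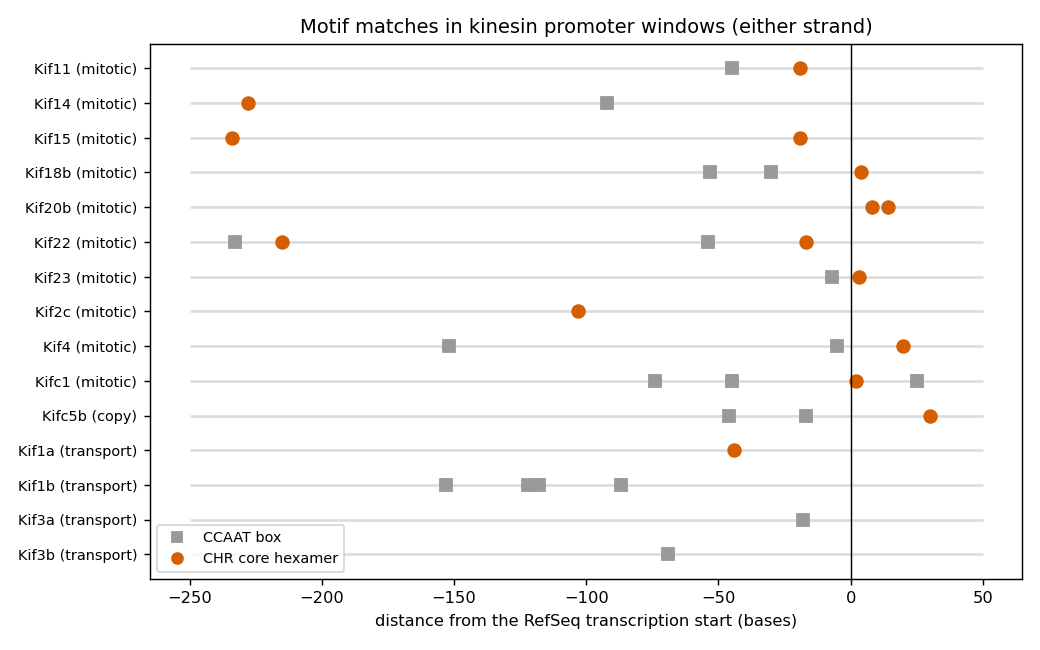
Positions of TTTGAA and CCAAT matches in the promoter windows of the mitotic kinesins, Kifc5b and the transport kinesins that hold at least 1 match, plotted as distance in bases from the annotated start. Of 11 mitotic kinesins 10 hold a TTTGAA match, close to the start in all of these but Kif2c and Kif14, against 1 of 10 transport kinesins.

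On day 0, mitotic and transport motors were both abundant, and the mitotic list led. The summed FPKM was 368.9 for the mitotic list and 166.98 for the transport list, a ratio of transport to mitotic of 0.453. The 5 highest kinesins on day 0 were Kif22 with an FPKM of 72.85, Kif20a with 55.97, Kif1c with 49.01, Kif23 with 45.43 and Kif5b with 44.68. On day 1 the mitotic sum of the BM library was 280.43 and that of C was 307.94, beside 267.11 for B and 293.96 for BC, so the 4 media still lay close to each other. From day 3 they parted. Over days 3 to 7 the mitotic sum was between 35.9 and 52.09 in the 6 libraries without bFGF and between 138.4 and 244.57 in the 6 with it. The transport sum went the other way, between 208.44 and 222.62 without bFGF and between 98.99 and 168.74 with it. These sums are scaled by library total alone. At that scaling 60.4% of all tested genes were called lower with bFGF over days 3 to 7, and the median log2 fold change of all genes was -0.38. The ratio of transport to mitotic within a library, which no scaling between libraries touches, was between 4.002 and 6.087 without bFGF and between 0.55 and 1.14 with it. Mki67, a proliferation marker, was split by bFGF as well, with an FPKM of 77.76 on day 0, 8.34 to 12.38 without bFGF on days 3 to 7 and 23.76 to 35.33 with it. Among the libraries with bFGF it did not follow the mitotic sum. On days 3, 5 and 7, Mki67 in B was 33.74, 26.3 and 35.33 beside sums of 177.9, 244.57 and 210.1. In BC it was 30.97, 27.91 and 23.76 beside 138.4, 175.47 and 179.86. In bulk RNA, fewer dividing cells and less kinesin RNA per cell cannot be told apart.

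**Figure D2:**
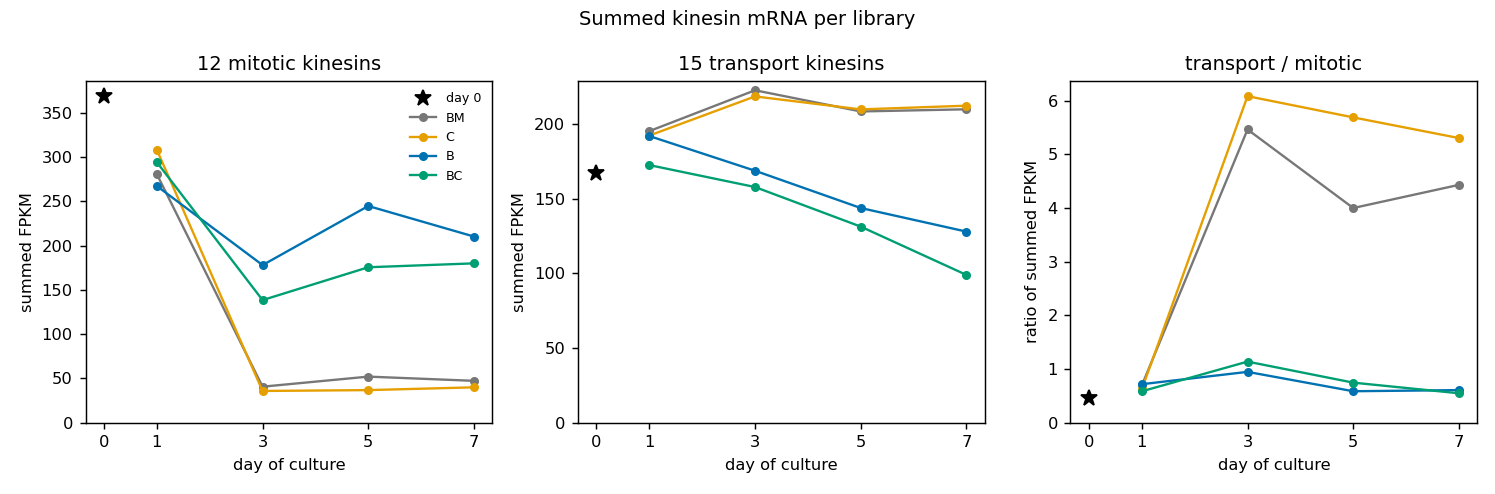
Summed FPKM of the 12 mitotic and the 15 transport kinesins, and their ratio, in each of the 17 libraries by day, with 1 point per library and no error since each condition has 1 library. From day 3 the mitotic sums with bFGF, 138.4 to 244.57, lie above those without, 35.9 to 52.09, and the transport sums lie in the opposite order. The sums are scaled by library total alone, and at that scaling the median log2 fold change of all genes over days 3 to 7 was -0.38.

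The first comparison asked how bFGF changed kinesin RNA over days 1 to 7. With bFGF, CHIR99021 and day as terms of 1 fit, 24 of the 31 tested kinesins passed the threshold of an adjusted p under 0.05 (edgeR's quasi-likelihood test with Benjamini-Hochberg adjustment over 11272 genes), where 68.4% of all tested genes did. All 12 mitotic kinesins were higher with bFGF, against 34.6% of all genes. Of the 11 transport kinesins, 6 were lower, against 33.9% of all genes, 1 was higher and 4 did not pass. A call among kinesins was thus hardly more common than among all genes, while its direction was uniform in the mitotic list. With no replicate of a condition, these p-values measure departures from additive effects, or, in the fit of bFGF by day below, the departures of the paired media, and not the spread between cultures.

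Since the media lay close on day 1, the effect of bFGF was also fitted for day 1 and for days 3 to 7 apart. On day 1, 2 of 31 kinesins passed, Kif21b and Kif26b, both lower with bFGF. Of all genes 10.7% passed, and 4.46% were lower. The 12 mitotic kinesins had log2 fold changes between -0.11 and 0.24 on day 1, and 0 of them passed or had an unadjusted p under 0.05 (edgeR, and DESeq2 called 0 as well). Such an unadjusted p was met by 26.4% of all genes, and DESeq2 called 5.85% of them higher and 6.41% lower. A fit without any 1 library of day 1 rests on 1 library on that side, so no count from it is given. Over days 3 to 7, 24 of 31 passed, against 83.3% of all genes, with 12 of 12 mitotic kinesins higher, against 40.8%. A level at least 4-fold higher was met by 10 of 12 mitotic kinesins and by 3.22% of all genes. The median log2 fold change of the 12 was 2.48, and that of all genes was -0.02. Their FPKM ranges on days 3 to 7 did not overlap between libraries with and without bFGF for 12 of 12, where 11.9% of all genes were higher in this way. The ranges of 6 of the 31 tested members lay apart in the other direction (Kif1b, Kif1c, Kif13a, Kif13b, Kif26b and Kifc2), as did those of 29.7% of all genes.

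The motors that set up the spindle were higher with bFGF, to differing degrees. Kif11, the motor that pushes antiparallel microtubules apart and so makes the spindle bipolar, had an FPKM of 28.63 on day 0. Its lowest, median and highest values on days 3 to 7 were 2.62, 2.80 and 4.05 without bFGF and 10.78, 14.17 and 18.57 with it. All 6 libraries with bFGF lay above all 6 without, and the log2 fold change was 2.58 ± 0.10 (SE), or 5.98-fold, with an edgeR adjusted p of 3.13e-10. Kif15, which can hold a bipolar spindle when Kif11 is impaired, reached 0.97, 1.37 and 1.79 without bFGF and 3.47, 3.68 and 3.71 with it. The ranges did not overlap, and the change of 1.76 ± 0.11 was the second smallest of the 12 mitotic kinesins. Kifc1, a minus-end motor that focuses spindle poles, had an FPKM of 4.86, 5.44 and 7.12 without bFGF and 21.12, 27.80 and 44.03 with it, highest in B on day 5. The log2 fold change was 2.63 ± 0.11, and that of its copy Kifc5b was 3.08 ± 0.15. The ratio of Kifc5b to Kifc1 within a library was between 0.169 and 0.366, so the copy took a small share throughout.

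Motors that act on chromosomes and microtubule ends were higher with bFGF as well. Kif22, a chromokinesin that pushes chromosome arms towards the spindle equator, was the most abundant kinesin on day 0. On days 3 to 7 its FPKM was 7.05, 8.41 and 10.56 without bFGF and 26.77, 38.47 and 51.60 with it, a log2 fold change of 2.53 ± 0.10. Kif4, the other chromokinesin, which also shapes the midzone, had 3.07, 4.38 and 4.82 without bFGF and 6.98, 9.24 and 9.99 with it. Its ranges were also apart, but its change of 1.48 ± 0.09 was the smallest of the 12. Kif2c, which takes microtubule ends apart and corrects faulty kinetochore attachments, had 2.82, 3.53 and 4.36 without bFGF and 12.06, 14.23 and 20.35 with it. The change was 2.43 ± 0.11. Kif18a, which dampens chromosome movements at the kinetochore, had 1.09, 1.36 and 1.67 without bFGF and 4.87, 8.85 and 10.31 with it, a change of 2.87 ± 0.11. Kif18b, which shortens astral microtubules, had 2.30, 2.75 and 3.63 without bFGF and 7.39, 11.40 and 13.51 with it, a change of 2.25 ± 0.11.

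The motors of cell separation included the largest difference between libraries with and without bFGF. Kif23, which with Racgap1 forms the centralspindlin complex of the midzone, had an FPKM of 45.43 on day 0. On days 3 to 7 it had 2.51, 3.42 and 4.32 without bFGF and 15.31, 23.38 and 26.86 with it. The ranges lay far apart, and the log2 fold change of 3.10 ± 0.12, or 8.57-fold, was the largest among the 12 (edgeR adjusted p = 2.12e-10). Kif20a, which brings Aurkb and its partners to the midzone, had 4.64, 4.90 and 6.75 without bFGF and 18.60, 24.50 and 34.12 with it, a change of 2.63 ± 0.10. Kif20b, a motor of abscission, had 1.54, 1.97 and 2.31 without bFGF and 4.73, 7.44 and 10.04 with it. Its change was 2.29 ± 0.09. Kif14, which works with the kinase encoded by Cit at the midbody, was the least abundant of the 12, with 0.39, 0.66 and 0.89 without bFGF and 2.09, 2.49 and 3.08 with it, a change of 2.37 ± 0.12.

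**Figure D3:**
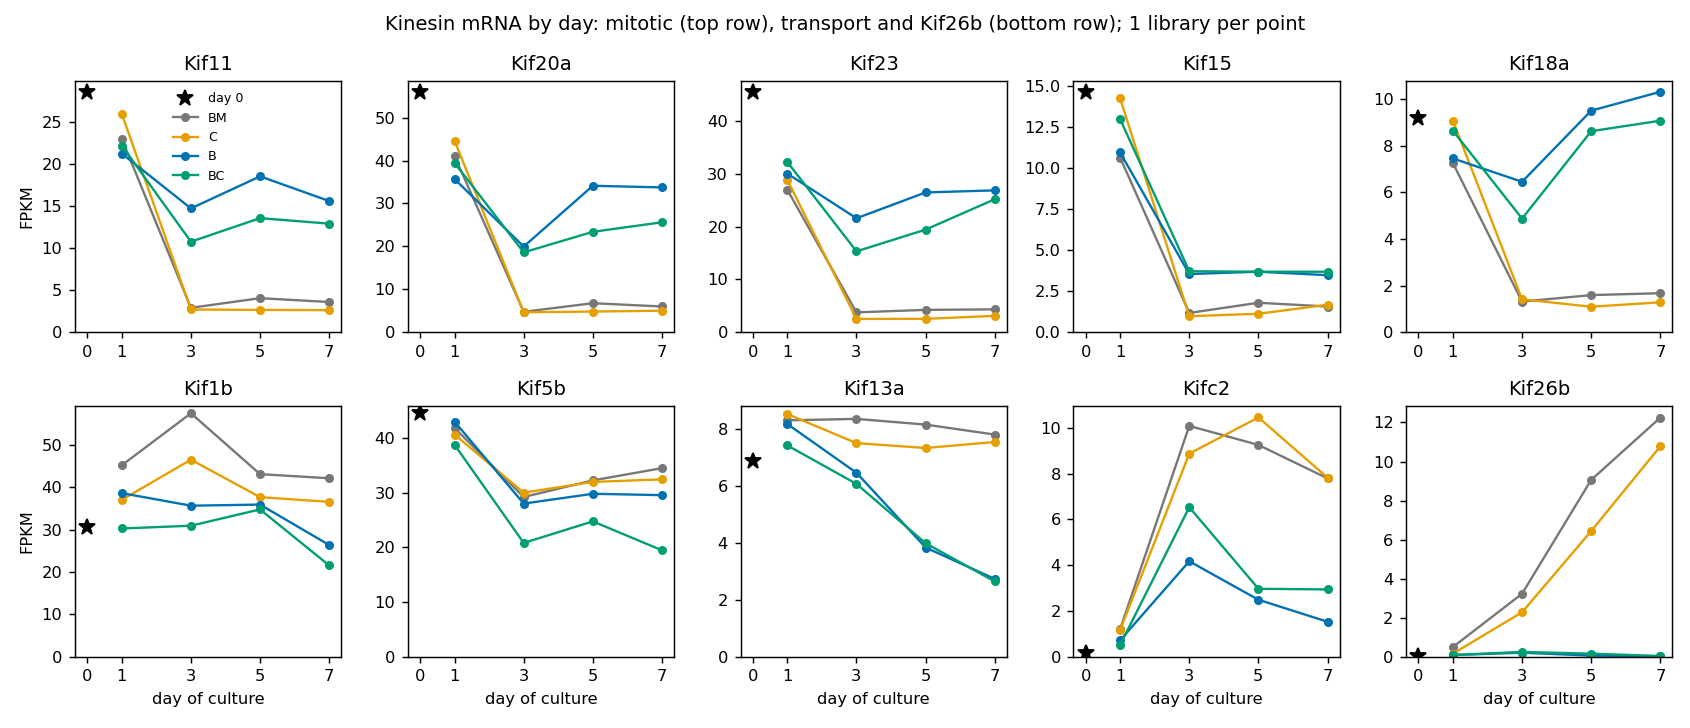
FPKM of 5 mitotic and 5 other kinesins by day in BM, C, B and BC, with the day 0 library as a star and 1 library per point on linear axes. From day 3 the mitotic motors lie higher with bFGF (Kif11 at 10.78 to 18.57 against 2.62 to 4.05), and Kif13a, Kifc2 and Kif26b lie higher without it.

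Genes that work with the mitotic motors were read from a list of 19. Of these, 18 were higher with bFGF on days 3 to 7 and 1, Numa1, a spindle pole protein, was lower, at -0.37, where 40.8% of all genes were higher and 42.5% lower. The largest positive changes were 3.35 for Anln, a scaffold of the cleavage furrow, and 3.19 for Aurkb, the kinase that Kif20a delivers. The smallest was 0.83 for Ckap5, a microtubule polymerase. The median log2 fold change of the list was 2.45, close to the 2.48 of the mitotic kinesins.

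The transport kinesins changed far less, and in both directions. On days 3 to 7, 6 of 11 were lower with bFGF, against 42.5% of all genes, 1 was higher, and Kif1b, Kif3b, Kif3c and Kif5b did not pass. The median log2 fold change of the 11 was -0.35. Scaled by library totals alone, with no TMM factor for composition, 10 of 11 were lower and 0 higher, where 60.4% of all genes were lower, 25.2% were higher and the median of all genes was -0.38. The TMM factors behind this ran from 0.75 to 0.82 in B and BC on days 5 and 7 and from 1.10 to 1.13 in BM and C, and FPKM values carry no such factor. The mitotic list stayed at 12 of 12 higher under library totals.

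Kifc2, a minus-end motor best known from dendrites, showed the largest difference among transport motors. Its FPKM was 0.18 on day 0, and on days 3 to 7 its lowest, median and highest values were 7.79, 9.06 and 10.45 without bFGF and 1.53, 2.96 and 6.53 with it. The ranges did not overlap, and the log2 fold change was -1.15 ± 0.14 (edgeR adjusted p = 4.96e-06). All 16 cultured libraries lay above the day 0 library. Kif13b, a carrier of signalling proteins to the cell cortex, had 6.81, 7.72 and 8.74 without bFGF and 1.98, 3.38 and 6.30 with it, a change of -0.81 ± 0.07. Kif13a, which moves endosomes and sorting receptors, had 7.32, 7.66 and 8.34 without bFGF and 2.64, 3.91 and 6.45 with it, a change of -0.59 ± 0.05. Both were lowest with bFGF on day 7. Kif16b, the early endosome motor, had 5.58, 5.76 and 7.62 without bFGF and 1.72, 2.76 and 5.92 with it. Its ranges overlapped through the BC library of day 3, and the change was -0.72 ± 0.13.

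The most abundant transport motors were Kif1c, Kif1b and Kif5b. Kif1c, a vesicle motor of many cell types, had 53.16, 58.94 and 66.04 without bFGF and 20.96, 30.69 and 38.64 with it, a change of -0.49 ± 0.06. The ranges were well apart and Kif1c was the highest kinesin in BM and C from day 5. Kif1b, a carrier of mitochondria and vesicle precursors, had 36.56, 42.61 and 57.45 without bFGF and 21.54, 32.85 and 35.91 with it. These FPKM ranges did not overlap either, yet the fold change after TMM scaling was -0.10 ± 0.05 and did not pass (adjusted p = 0.0736, edgeR). Kif5b, the conventional kinesin heavy chain, had 29.23, 32.13 and 34.51 without bFGF and 19.48, 26.40 and 29.82 with it, a change of 0.03 ± 0.08 that did not pass. With library totals it was -0.33 (adjusted p = 0.00181, edgeR). A ratio within a library is free of such scaling: on day 7 Kif1c stood to Kif5b as 1.69 in BM and 2.03 in C, and as 0.991 (B) and 1.08 (BC) with bFGF, beside 1.10 on day 0. On day 5 the ratio was 1.84 in BM and 1.95 in C, and 1.08 in B and 1.16 in BC. On day 3 BC, at 1.83, stood with BM (1.82) and C (1.83), and B was at 1.38. On day 1 all 4 media lay between 1.10 and 1.29.

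The kinesin-2 motors, which carry cargo into cilia, differed among themselves. Kif3a had 13.69, 18.04 and 27.21 without bFGF and 8.76, 10.18 and 15 with it on days 3 to 7, with overlapping ranges, and its change was -0.35 ± 0.08 (edgeR adjusted p = 0.00113). Its partner Kif3b had 7.59, 8.93 and 10.42 without bFGF and 4.27, 6.11 and 9.07 with it, and the change of -0.13 ± 0.08 did not pass. Kif3c, which pairs with Kif3a in neurons, had 11.88, 12.34 and 13.68 without bFGF and 8.20, 11.48 and 13.90 with it, and its change of 0.16 ± 0.07 did not pass. The ratio of Kif3a to Kif3b was 1.02 on day 0. On day 3 it was 2.64 (BM) and 3.27 (C) without bFGF and 1.65 (B) and 1.75 (BC) with it. On day 5 it was 1.61 (BM) and 1.96 (C), and 1.51 (B) and 1.96 (BC). On day 7 it was 1.65 (BM) and 1.71 (C) without bFGF and 1.80 (B) and 2.05 (BC) with it. The shift from day 0 was thus seen with and without bFGF, and was larger without it on day 3. Kifc3, a minus-end motor of cell junctions, was the 1 transport kinesin called higher, by 0.28 ± 0.07, though its FPKM of 5.15 to 7.24 without bFGF and 4.67 to 8.83 with it overlapped and library totals gave -0.08. The neuronal motors Kif1a, Kif5a, Kif5c and Kif17 stayed low, with Kif1a at or under 0.05 in every library. Of 12 neuron markers, only Gap43, Syn1, Syt1 and Tubb3 passed the filter.

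Among proteins that link transport motors to cargo or complete their complexes, 16 of 17 could be tested. On days 3 to 7, 6 were higher with bFGF and 7 lower, near the 40.8% and 42.5% of all genes. The largest positive changes were 1.17 for Mapk8ip3, an adaptor of kinesin-1 and JNK, and 0.74 for Arl8b, a lysosomal GTPase. The largest negative ones were -1.51 for Fez1, a kinesin-1 adaptor, and -1.11 for Trak2, which ties kinesin to mitochondria. Of the 4 kinesin light chains, Klc4 had a log2 fold change of -0.59 and the other 3 lay between -0.17 and 0.13. Cytoplasmic dynein and dynactin, the counter-motor, had 8 of 18 higher and 6 lower. Dynlt3 at 0.64 and Dctn3 at 0.61 were the largest positive changes, and Dctn1 at -0.81 and Dync1li2 at -0.70 the largest negative ones. Under library totals, where 60.4% of all genes were lower, 3 transport partners were higher and 10 lower, and 5 of the dynein and dynactin genes were higher and 13 lower.

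Outside the 2 main lists, Kif26b had the widest gap between media of all kinesins. It is a kinesin-like protein without motor activity that is known from kidney development and from Wnt5a signalling through Ror receptors. Its FPKM was 0.05 on day 0. In BM it was 0.50, 3.23, 9.06 and 12.25 on days 1, 3, 5 and 7, and in C it was 0.16, 2.28, 6.44 and 10.78. In B it was 0.09, 0.21, 0.06 and 0.03, and in BC 0.09, 0.25, 0.16 and 0.04. All libraries without bFGF lay above those with bFGF of the same day, and the gap widened with time. Kif26b passed the filter only through the libraries without bFGF, where its mean FPKM was 5.59 against 0.116 with bFGF, so it had to differ, and its log2 fold changes of -1.93 on day 1 and -5.82 over days 3 to 7 are given as a description. It is counted among the members called above, and was the 1 member let in this way. Of 6 endothelial and pericyte markers, Pdgfrb alone passed the filter, with a change of -2.70 over days 3 to 7. It made up nearly all of the list's summed FPKM, 80.0 to 115.29 without bFGF and 5.43 to 32.15 with it. The other markers did not share that level, with Cdh5, Cspg4 and Pecam1 under 0.1 in every cultured library, Rgs5 at 0.10 or less and Kdr at 1.27 or less. The part of cells with Pdgfrb in the Kif26b values was not tested.

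Other members moved mildly. Kif2a, which takes microtubules apart at spindle poles and in neurons, had 10.90, 12.71 and 14.88 without bFGF and 18.45, 21.43 and 26.23 with it on days 3 to 7. These ranges did not overlap, and the change was 1.00 ± 0.06. Kif24, which restrains cilium assembly, had 0.71, 0.89 and 1.15 without bFGF and 0.88, 1.39 and 2.06 with it, overlapping, with a change of 0.94 ± 0.12. Kif21a, a motor that slows microtubule growth, changed by 0.59 ± 0.05. Its relative Kif21b was 0.04 on day 0 and 0.95 to 3.93 in the cultured libraries, and was lower with bFGF on day 1 by a log2 fold change of -0.81 ± 0.15 (edgeR adjusted p = 0.00806) but did not pass on days 3 to 7, with -0.05 ± 0.09. Kif7, which acts in Hedgehog signalling at the cilium tip, did not pass, nor did Kif1bp at -0.09 ± 0.05, which under library totals was at -0.45. The 7 kinesins lower with bFGF over days 3 to 7 were Kif26b and the 6 of the transport list.

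**Figure D4:**
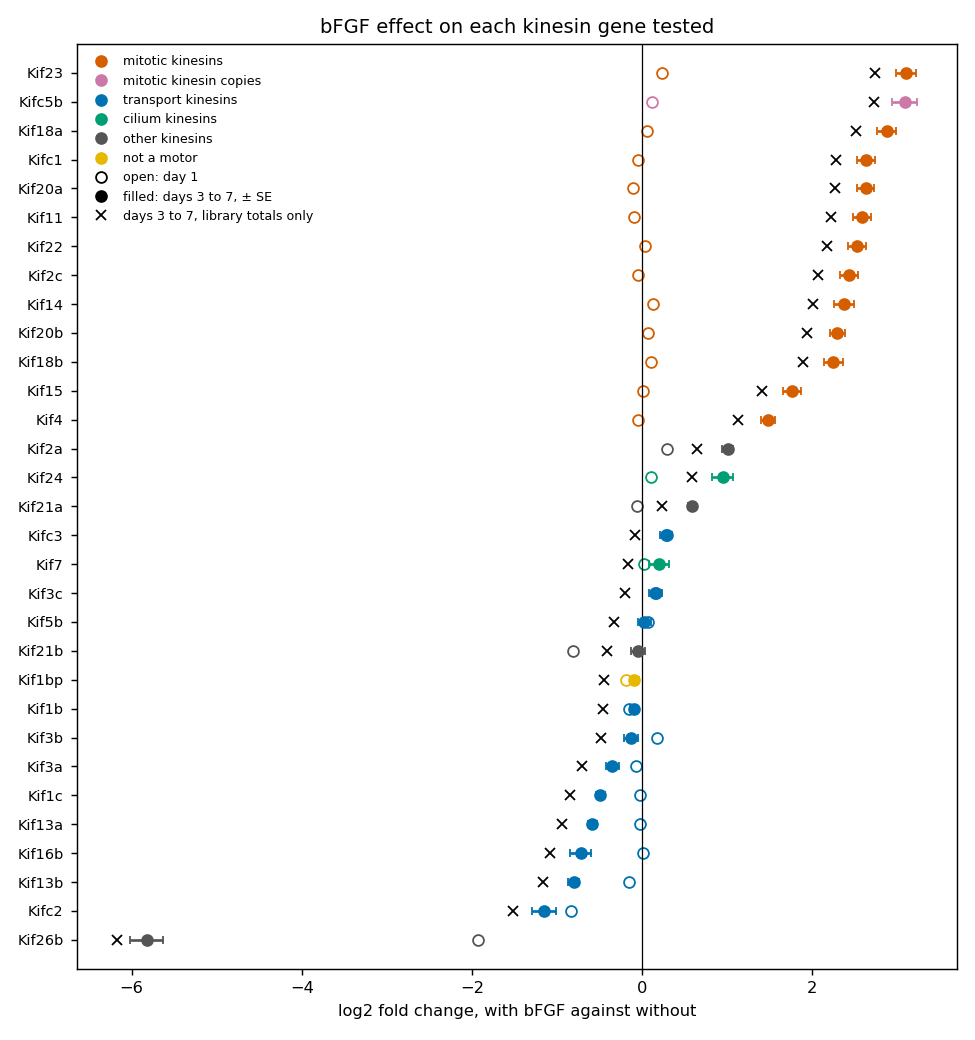
Log2 fold change with bFGF of each of the 31 tested kinesins, as open circles for day 1 and filled circles with bars of 1 SE for days 3 to 7, from the edgeR fit, and crosses for days 3 to 7 scaled by library totals alone. The 12 mitotic kinesins sit between -0.11 and 0.24 on day 1 and between 1.48 and 3.10 on days 3 to 7, while the transport kinesins stay between -1.15 and 0.28 on days 3 to 7. The crosses lie below the filled circles, and those of Kif3c, Kif5b, Kif7 and Kifc3 lie on the other side of 0.

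The growth of the bFGF effect after day 1 was tested as such. The effect on days 3 to 7 differed from that on day 1 for 22 of 31 kinesins, against 62.1% of all genes (edgeR). It was more positive later for 17, against 28.9% of all genes, among them 12 of 12 mitotic kinesins, by 1.53 (Kif4) to 2.86 (Kif23). It was more negative later for 5, against 33.2%, namely Kif26b, Kif13a, Kif13b, Kif16b and Kif1c. For Kifc2 the difference was -0.31 ± 0.37 and did not pass, and its value on day 1 was -0.84 ± 0.33.

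Change over time within each medium shows what lay behind that growth. Without bFGF, from day 1 to day 7, 22 of 31 kinesins passed, against 63.8% of all genes. All 12 mitotic kinesins fell, by log2 fold changes of -2.13 (Kif4) to -3.15 (Kif14), where 31.5% of all genes fell. Kif26b rose by 5.00, Kifc2 by 2.71 and Kif13b by 0.97, where 32.3% of all genes rose. With bFGF 19 of 31 passed, against 75.3% of all genes (35.8% up, 39.5% down), and the mitotic motors split. Kif15 fell by 1.36, Kif14 by 1.13, Kif4 by 0.75, Kif2c by 0.62 and Kif18b by 0.52, whereas Kif18a rose by 0.72. The other 6 of the 12 did not pass. Scaled by library totals alone, where the median of all genes over this interval was -0.48, 8 of the 12 fell, against 56.1% of all genes, and Kif18a at 0.28 did not pass (adjusted p = 0.145, edgeR). Under TMM Kifc5b rose by 0.95, Kifc2 by 2.28 and Kif21a by 0.71. Kif24 fell in both, by 2.45 without bFGF and by 1.79 with it. Kif13a fell by 1.09 and Kif16b by 0.96 with bFGF and did not pass without it, at -0.15 and -0.13 (the difference between the 2 changes was not itself tested).

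Because each library of day 7 can be set beside the 1 day 0 library, the level left on day 7 was expressed as a percent of the FPKM on day 0, with no test. The median over the 12 mitotic kinesins was 13.6% (BM) and 11.2% (C) without bFGF and 56.9% (B) and 45.5% (BC) with it. The members ranged widely with bFGF. Kif18a stood at 112% in B and 98.9% in BC, whereas Kif15 stood at 23.8% and 25.2%. The ratio of Kif18a to Kif15 within a library was 0.628 on day 0 and 0.637 to 0.682 on day 1. For B it was 2.97 on day 7 and for BC 2.46, above the 1.07 in BM and the 0.766 in C. Kif20a to Kif15 had a ratio of 3.83 on day 0. By day 7 the B library stood at 9.72 and the BC library at 6.96, while BM stood at 3.83 and C at 2.99. Kif18a and Kif15 were the highest and lowest of the 12 percentages in both media with bFGF on day 7, so their ratio is that of the extremes. Without bFGF the extremes were Kif4 and Kif23, and the ratio of Kif23 to Kif4 went from 1.77 on day 0 to 0.908 in BM and 0.701 in C on day 7, beside 2.69 in B and 3.61 in BC.

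**Figure D5:**
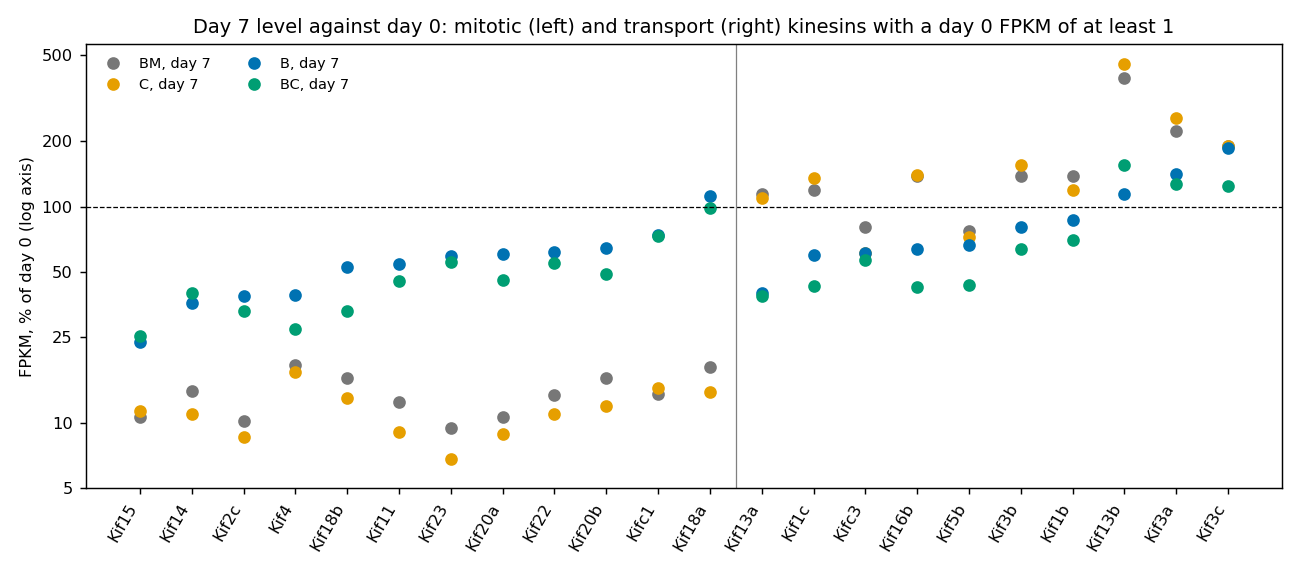
Day 7 FPKM of mitotic (left) and transport (right) kinesins with a day 0 FPKM of at least 1, in BM, C, B and BC, as a percent of day 0 (log axis), with 1 library per point and no error. With bFGF, Kif18a lies at 112% and 98.9% and Kif15 at 23.8% and 25.2%, and without bFGF the mitotic median lies at 13.6% and 11.2%. The FPKM values carry no TMM factor.

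CHIR99021 was compared in the same way. Over days 1 to 7, 0 of 31 kinesins passed (edgeR), against 0.337% of all genes. An unadjusted p under 0.05 was met by 3 members (Kif3c, Kif13b and Kifc3), a share like the 9.99% of all genes. DESeq2 called 1 of 31 members, Kifc3, at -0.27 (adjusted p = 0.0143), and of all genes it called 0.772% higher and 1.72% lower. The log2 fold changes ran from -0.31 to 0.27, and 10 of 12 mitotic kinesins were on the lower side. The median log2 fold change of all genes was 0.01. The interaction of bFGF and CHIR99021 gave 0 of 31, against 0.00887% of all genes, with 2 members at an unadjusted p under 0.05, against 1.58% of all genes, and 0 called by DESeq2. This fit carries the strong change of the bFGF effect between days in its residual spread, with a biological coefficient of variation of 24.7%, against 10% when each combination of bFGF and day has its own term.

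A fit with those terms, chosen after the data were seen, was therefore read for CHIR99021 on days 3 to 7. It had separate CHIR99021 terms for day 1 and for days 3 to 7. There 8 of 12 mitotic kinesins were lower with CHIR99021, against 9.39% of all genes lower, and 13 of 31 members passed, against 18.8% of all genes. With 1 CHIR99021 term over all days instead, 7 of 31 passed, against 19.5% of all genes. The 8 were Kif2c, Kif4, Kif11, Kif18b, Kif20a, Kif20b, Kif22 and Kif23, with log2 fold changes of -0.23 (Kif4) to -0.44 (Kif23) and edgeR adjusted p of 0.0272 and 0.0054. The changes were small, and those of Kif14 at -0.04 and Kif15 at -0.03 did not pass. In FPKM, Kif23 was 3.75 in BM and 2.51 in C on day 3, 4.22 and 2.52 on day 5, and 4.32 and 3.09 on day 7. It was 21.58 in B and 15.31 in BC on day 3, 26.47 and 19.43 on day 5, and 26.86 and 25.18 on day 7. The library with CHIR99021 was the lower one in 6 of 6 pairs for Kif4, Kif11, Kif20a, Kif20b, Kif22 and Kif23. For Kif14 it was the lower one in 3 pairs and for Kif15 in 2. On day 1 none of the 12 mitotic kinesins was lower with CHIR99021 in either pair. The genes were read in the same few libraries and are not replicates, and no share over all genes was computed. The difference between days 3 to 7 and day 1 passed for 0 of 31 kinesins (edgeR, the 1 tool run for it), against 0.00887% of all genes, with an unadjusted p under 0.05 for 12 members, 11 of them mitotic, and for 6.71% of all genes. In the transport list of that fit, Kif13b was higher with CHIR99021 by 0.33 ± 0.06, and Kifc3 at -0.31 ± 0.07, Kif3c at -0.24 ± 0.07 and Kif1b at -0.18 ± 0.05 were lower. Kif2a was lower as well, at -0.25 ± 0.06.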

How the data were processed

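The 17 libraries held poly-A RNA and were read on a BGISEQ-500 instrument. The submitters' processing notes name Bowtie2, RSEM and build mm10, while the methods name Bowtie 2 and eXpress, so the program behind the estimates is not settled here. For each gene the authors deposited an expected count, an estimate that splits reads shared between genes, and an FPKM value scaled by transcript length and library total. Genes absent from a library's list were set to 0. The day 0 library is described both as cells in BM and as cells before treatment, and entered no fit.

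Expected counts, rounded, went into edgeR 4.0.16 (R 4.3.3) with TMM factors, glmQLFit and glmQLFTest. The 11272 genes whose mean FPKM reached 1 were tested, p-values were adjusted by Benjamini-Hochberg over them, and the threshold was 0.05. One fit had bFGF, CHIR99021 and day as additive terms, with or without the interaction of bFGF and CHIR99021. The other had each combination of bFGF and day, whose residual spread is that between libraries with and without CHIR99021. SE is the log2 fold change divided by the square root of F. The fits were tested on simulated data.

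Every tested member of the mitotic and transport lists was named, and any other member past the threshold in a test. For partner lists, counts and the 2 largest changes each way were given, and the few further genes named (Ckap5, the kinesin light chains) were picked after their values were seen. Members and lists were chosen with earlier results of these data known. Alternatives were DESeq2 1.42.0, its size factors, library totals, other filters, limma 3.58.1 on log2(FPKM + 1) or log2(FPKM + 0.1), and fits without day 1 or without any 1 library. Promoter windows came from RefSeq, GRCm38.p6. Tables and plots were made with Python 3.11.15, numpy 2.4.6, pandas 2.3.3 and matplotlib 3.10.9. One marker of the progenitor list is not reported here.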

Additional observations from a re-analysis of the deposited data

Results flagged for a closer look

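For 22 of the 31 tested kinesins the bFGF effect on days 3 to 7 differed from that on day 1 (edgeR quasi-likelihood test of the difference, Benjamini-Hochberg adjusted p under 0.05). The same held for 62.1% of all genes, with 28.9% more positive and 33.2% more negative later. The values below are log2 differences, later minus day 1, and the day 1 effect rests on 4 libraries. For spindle motors the difference was 2.68 for Kif11, 1.75 for Kif15 and 2.69 for Kifc1, with 2.97 for the copy Kifc5b. For chromosome and microtubule end motors it was 2.49 for Kif22, 1.53 for Kif4, 2.48 for Kif2c, 2.81 for Kif18a and 2.14 for Kif18b. For the motors of cell separation it was 2.86 for Kif23, 2.73 for Kif20a, 2.23 for Kif20b and 2.24 for Kif14. Smaller positive differences were 0.84 for Kif24, 0.76 for Kif21b, 0.71 for Kif2a and 0.64 for Kif21a. Kif26b, which passed the filter only through the libraries without bFGF, stood on the other side with -3.89. The endosome and vesicle motors had -0.73 (Kif16b), -0.65 (Kif13b), -0.56 (Kif13a) and -0.46 (Kif1c).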

How the results depend on the processing

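The count of 12 mitotic kinesins higher with bFGF, over days 1 to 7, over days 3 to 7 and as a later excess, held under every alternative run for it but a mean FPKM of at least 5, which left 10 to be called. The count of transport kinesins lower on days 3 to 7 went from 6 to 10 with library totals and with both limma fits. The share of all genes lower went from 42.5% to 60.4% with library totals, and to 59.7% and 59.8% with limma on log2(FPKM + 1) and log2(FPKM + 0.1). As a later excess the transport count went from 4 to 8 and 7 with these 2 limma fits. There the share of all genes went from 33.2% to 47.2% and 46.7%. Library totals and limma apply no composition factor between libraries. The day 1 count of 2 became 1 with either limma fit. On that day limma called 3.28% of all genes higher and 5.4% lower on log2(FPKM + 1), and 2.79% and 5.88% on log2(FPKM + 0.1). The day 1 count became 0 at a mean FPKM of at least 5, where Kif21b and Kif26b, the 2 called, were not tested. Counts with a day 1 library left out are not given, since 1 side then rests on 1 library. The count from day 1 to day 7 with bFGF went from 19 to 12 at a mean FPKM of at least 5. Members called before, among them Kif14, Kif15, Kif16b, Kif21b and Kif24, were not tested there, and 35.7% of all genes rose and 41.2% fell. For CHIR99021, DESeq2 gave 1 member, and the fits with bFGF by day groups, chosen after the data were seen, gave 7 over all days and 13 over days 3 to 7, each against 0. Of all genes, DESeq2 called 0.772% higher and 1.72% lower, and the fits by day groups called 19.5% and 18.8%.

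Changes of sign fell on small effects, of which the higher level of Kifc3 with bFGF had passed the test. Over days 1 to 7, library totals and limma on log2(FPKM + 1) gave -0.13 and -0.12 for Kif3c, -0.25 and -0.25 for Kif5b, -0.13 and -0.009 for Kif7, and -0.005 and -0.006 for Kifc3. Over days 3 to 7 they gave -0.20 and -0.19 for Kif3c, -0.33 and -0.33 for Kif5b, -0.16 and -0.002 for Kif7, and -0.081 and -0.065 for Kifc3. For the later excess they gave -0.22 and -0.25 for Kif1b and -0.17 and -0.20 for Kif1bp, library totals gave -0.11 for Kif7, and DESeq2 or its size factors gave 0.037 for Kif3c and 0.008 for Kif5b, and 0.032 or 0.033 for Kifc3. With 1 library left out, the ranges that crossed 0 were -0.12 to 0.022 for Kif3b and -0.014 to 0.088 for Kif5b over days 1 to 7, -0.14 to 0.026 for Kif21b and -0.037 to 0.093 for Kif5b over days 3 to 7, and, for the later excess, -0.067 to 0.087 for Kif3c, -0.11 to 0.066 for Kif5b, -0.60 to 0.052 for Kifc2 and -0.11 to 0.13 for Kifc3. With library totals and with limma on log2(FPKM + 1), the changed values of Kif5b over both intervals and of Kif3c over days 3 to 7 passed the threshold. That of Kif1b as a later excess passed with limma. The fit with library totals differs from the main fit only in leaving out the TMM factors, and the cause of the other changes was not tested. With 1 library per condition, differences between cultures could not be measured.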
